A study of Mus musculus with 4 samples.

Results

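Expression of 10 genes that mark the stem cells at the base of the intestinal crypt was read in organoids of mouse intestine, which are epithelial cultures kept in a Matrigel dome. The genes are Lgr5, Olfm4, Ascl2, Smoc2, Lrig1, Cdca7, Msi1, Prom1, Rgmb and Tnfrsf19. They were taken by the platform's gene symbol, with every probe set that carries one of these symbols. That gave 26 probe sets, and the 10 genes are 10 of 18193 genes that the array names with a single symbol. All were read on the same 4 Affymetrix arrays, 1 each for Tacc3 fl/fl organoids at day 6, Tacc3 wt/wt organoids at day 6, Tacc3 fl/fl organoids at day 4 and Tacc3 wt/wt organoids at day 4. All cultures, wt/wt included, had received 4OHT (4-hydroxytamoxifen) for 24 hours, the drug used to induce recombination of Apc and Tacc3. Tacc3 encodes a protein of the mitotic spindle, and Apc encodes the tumour suppressor that keeps beta-catenin, the effector of Wnt signalling, low. In the sample descriptions the cultures of day 4 are normal and those of day 6 lack Apc, but the design text has Apc recombined before either collection. The Apc state of a culture is therefore not settled, and day is used here only as day. The labels name neither the Cre driver nor the floxed exons, nor the number of mice or organoid lines. Each group holds 1 array, so no difference between groups has a replicate check.

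Stem cells at the crypt base divide throughout life and renew the whole intestinal lining. Wnt signals, amplified by R-spondins that bind LGR receptors, keep them in the stem cell state, while Notch signals from neighbouring cells hold back secretory fate and BMP signals oppose stemness. Loss of Apc turns on the Wnt pathway without its ligand, and the stem cell programme belongs to its targets in the intestine. Among the 10 markers, Ascl2, Cdca7 and Msi1 act inside the cell on DNA or RNA. Lgr5, Rgmb, Tnfrsf19, Lrig1 and Prom1 encode membrane proteins, and Olfm4 and Smoc2 encode secreted proteins.

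Tacc3 itself checked the genotype labels. Its brightest probe set read 49.7 in fl/fl and 167 in wt/wt organoids at day 6, and 59.8 in fl/fl and 184 in wt/wt organoids at day 4. The fl/fl level was thus 29.8% of the wt/wt level at day 6 and 32.5% at day 4. The dimmer Tacc3 probe sets differed less. On them the fl/fl level was 50.7% and 87.2% at day 6, and 48.9% and 80.4% at day 4, in the same order of probe sets. Where the Tacc3 probe sets lie relative to the floxed part of the gene was not analysed here. Probe set intensities are linear values as deposited, with array medians of 15.4 to 17.7. Differences below are on the log2(intensity + 16) scale, which understates the differences of dim probe sets, and a difference of 1 on it is called 2-fold. The days also differed in control probe sets. For Actb, the ratio of 5' to 3' signal, which is low in degraded RNA or short labelled RNA, was 0.261 in fl/fl and 0.180 in wt/wt organoids at day 6, against 0.0627 in fl/fl and 0.0610 in wt/wt organoids at day 4. Gapdh ratios were 0.524 in fl/fl and 0.411 in wt/wt organoids at day 6, against 0.142 in fl/fl and 0.208 in wt/wt organoids at day 4. Bacterial hybridization controls at day 6 had 0.404 times their day 4 level in fl/fl and 0.347 times in wt/wt organoids. Between the genotypes, these controls in fl/fl organoids had 0.811 times the wt/wt level at day 6 and 0.696 times at day 4. The poly-A spike-in controls in fl/fl organoids had 0.584 times the wt/wt level at day 6 and 0.583 times at day 4. The part of these control differences in the results below was not tested.

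Promoter sequence is shown for Olfm4 and Cdca7, which were higher at day 6 by similar amounts in both genotypes, and for Tnfrsf19, which was lower at day 6 on its brightest probe set. Of the 2 Tnfrsf19 promoters the printed one was chosen because it holds the motifs searched for. The sequences are from RefSeq on the GRCm38.p6 build, run 5′ to 3′ on the gene's strand, and end 1 base before the annotated start site. Capitals mark the TCF/LEF core in the forms CTTTGAT or CTTTGAA, through which beta-catenin acts on Wnt targets, and the E-box CAGCTG, a site type bound by Ascl factors. Both strands were searched, and the forms do not overlap in the windows shown.
Olfm4 chr14:80000052-80000301 (plus strand): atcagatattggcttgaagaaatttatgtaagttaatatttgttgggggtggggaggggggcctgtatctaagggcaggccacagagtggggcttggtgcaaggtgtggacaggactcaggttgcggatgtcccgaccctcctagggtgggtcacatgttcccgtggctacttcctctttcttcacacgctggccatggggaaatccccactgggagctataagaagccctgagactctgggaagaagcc
Cdca7 chr2:72475969-72476218 (plus strand): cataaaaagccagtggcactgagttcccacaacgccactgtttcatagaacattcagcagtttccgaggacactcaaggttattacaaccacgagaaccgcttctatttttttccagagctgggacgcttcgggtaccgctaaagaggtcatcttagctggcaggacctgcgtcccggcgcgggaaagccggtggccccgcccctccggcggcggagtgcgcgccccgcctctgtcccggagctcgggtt
Tnfrsf19 chr14:61037988-61038237 (minus strand): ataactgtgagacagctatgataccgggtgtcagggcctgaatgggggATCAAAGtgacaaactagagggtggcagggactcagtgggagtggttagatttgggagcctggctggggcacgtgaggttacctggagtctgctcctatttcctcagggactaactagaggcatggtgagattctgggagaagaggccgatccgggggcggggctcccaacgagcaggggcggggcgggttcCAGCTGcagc
The table held 11 promoters of 7 members (Cdca7, Prom1, Lrig1, Ascl2, Tnfrsf19, Olfm4 and Rgmb). A TCF/LEF form lay within 250 bases before the start site in 1 of the 11, the Tnfrsf19 promoter printed above, against 7.48% of all 32851 promoters. CAGCTG lay in that same promoter and in no other of the 11, against 13% of all promoters. The windows of Olfm4 and Cdca7 held none of these letters, with 54% and 59.2% G or C. A match is a description of the sequence only, and a window without one says nothing on more distant sites.

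Most of the markers were higher at day 6 than at day 4 in both genotypes. Each gene was read on its brightest probe set, by mean intensity over these same 4 arrays. That choice can favour a probe set that is high at day 6, as for Smoc2 and Rgmb below. It was made alike for all genes. On the brightest probe set of each gene, 5 of 10 were 2-fold higher at day 6 in fl/fl organoids and 6 of 10 in wt/wt organoids, and none was 2-fold lower in either, against 2.9% of all genes above the intensity filter in fl/fl and 3% in wt/wt organoids. Tnfrsf19 became 2-fold lower in wt/wt organoids with a pseudocount of 1 (-1.12) and after quantile normalization (-1.22). The 5 in fl/fl organoids, Olfm4, Cdca7, Rgmb, Lrig1 and Smoc2, were also among the 6 in wt/wt organoids, where Lgr5 joined them. Of the 11392 genes above the intensity filter, 12.5% were 2-fold higher at day 6 in fl/fl organoids, 18.6% in wt/wt organoids and 9.6% in both. The median difference of the 10 markers was 1.17 in fl/fl and 2.16 in wt/wt organoids, against 0.00152 and 0.173 for all genes above the filter. In organoids sampled in bulk, fewer cells of a type and less RNA per cell cannot be told apart.

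**Figure D1:**
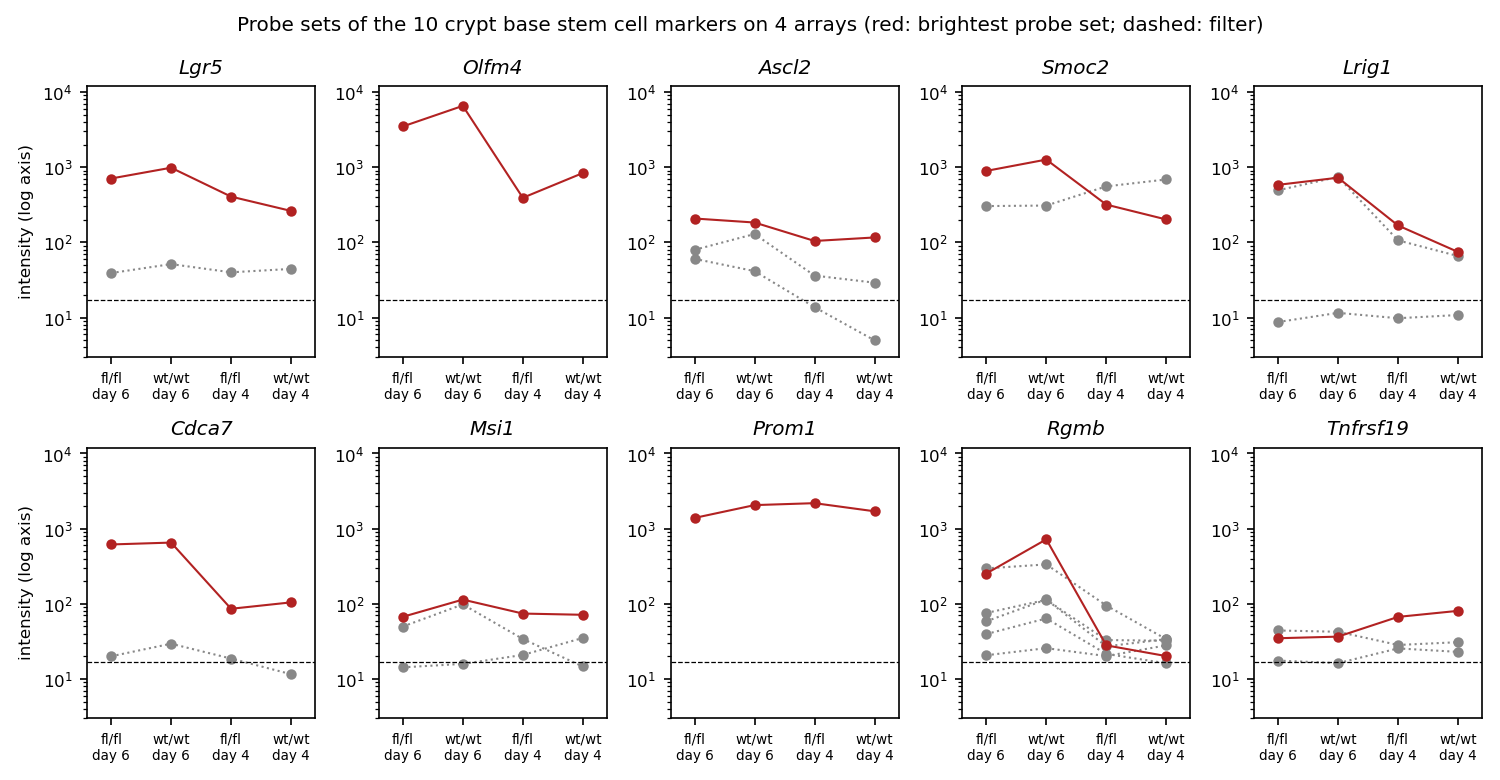
Intensity on a log axis of all 26 probe sets of the 10 markers on each of the 4 arrays, by genotype and day, with 1 array per group and no error bars. The red line joins the brightest probe set of each gene, dotted grey lines the others, and the dashed line is the filter at an intensity of 16.9. On their brightest probe sets Olfm4, Cdca7, Lrig1 and Rgmb show both day 6 arrays above both day 4 arrays, while the probe sets of Smoc2 and Tnfrsf19 run in opposite directions.

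Ascl2, the basic helix-loop-helix factor that sets stem cell fate in the crypt, had 207 in fl/fl and 183 in wt/wt organoids at day 6, against 104 in fl/fl and 116 in wt/wt organoids at day 4, on its brightest probe set. Both day 6 arrays lay above both day 4 arrays, with differences of 0.89 in fl/fl and 0.59 in wt/wt organoids that fell short of 2-fold. Its other probe sets differed more. Probe set 1432018_at read 79.5 and 129 at day 6 against 36.1 and 29.1 at day 4, and 1422396_s_at read 60.3 and 41.4 against 13.7 and 4.97, in fl/fl and wt/wt organoids in that order. The day differences were 0.87 and 1.69 for 1432018_at and 1.36 and 1.45 for 1422396_s_at, so the size of the Ascl2 difference depended on the probe set, while its direction was the same on all 3. The brightest probe set and 1422396_s_at are of the s_at kind, which can bind several transcripts.

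Cdca7, a target of Myc and partner of the chromatin remodeller HELLS, was at 616 in fl/fl and 652 in wt/wt organoids at day 6, against 85.9 in fl/fl and 105 in wt/wt organoids at day 4. The genotypes lay close together within each day, and day 6 was 7.17 times day 4 in fl/fl and 6.24 times in wt/wt organoids. The second probe set, 1445681_at, was dim, at 20.1 and 29.5 at day 6 and 18.7 and 11.6 at day 4, and differed by 0.06 in fl/fl and 0.72 in wt/wt organoids.

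Msi1, an RNA-binding protein of neural and intestinal progenitors, had probe sets that differed in how they ordered the days. Its brightest read 67.2 in fl/fl and 114 in wt/wt organoids at day 6, against 74.2 in fl/fl and 71.5 in wt/wt organoids at day 4. On it the wt/wt array at day 6 stood above the other 3, which lay within 67.2 to 74.2. On 1444306_at both day 6 arrays, 49.9 in fl/fl and 98.2 in wt/wt organoids, lay above both day 4 arrays, 34.1 in fl/fl and 14.7 in wt/wt organoids, with differences of 0.40 and 1.90. On 1421409_at both day 6 arrays, at 14.3 and 15.9, lay below both day 4 arrays, at 20.9 and 35.2.

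Lgr5, the R-spondin receptor by which crypt base stem cells are defined, had 706 in fl/fl and 983 in wt/wt organoids at day 6, against 405 in fl/fl and 262 in wt/wt organoids at day 4. The order of the genotypes turned between the days, so the day difference was 0.78 in fl/fl and 1.85 in wt/wt organoids. The second Lgr5 probe set, 1444519_at, was nearly flat, between 39.0 and 51.3 on all 4 arrays.

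Rgmb, a membrane-anchored BMP co-receptor, is read by 6 probe sets and had the widest range of any member. The brightest, 1442811_at, read 253 in fl/fl and 720.4 in wt/wt organoids at day 6, against 28.0 in fl/fl and 20.2 in wt/wt organoids at day 4. By its mean log2 value 1428429_at is the brighter of the pair (7.29, against 7.06 for 1442811_at), so which of them represents Rgmb depends on how brightness is averaged. Both day 4 values of 1442811_at lie near the filter intensity of 16.9, and day 6 was 9.02 times day 4 in fl/fl and 35.7 times in wt/wt organoids. The probe set 1428429_at read 296 and 334 at day 6 against 95 and 33.8 at day 4. The probe sets 1433586_at, 1459366_at and 1433587_at differed by 0.57 to 0.90 in fl/fl and by 1.31 to 1.42 in wt/wt organoids. The last, 1428430_at, stayed between 20.2 and 28.0 on all arrays. In wt/wt organoids 5 of the 6 probe sets were thus 2-fold higher at day 6, and in fl/fl organoids 2 of 6.

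Lrig1, a transmembrane inhibitor of ErbB receptor signalling, was at 581 in fl/fl and 723 in wt/wt organoids at day 6, against 168 in fl/fl and 74.4 in wt/wt organoids at day 4. Probe set 1449893_a_at gave nearly the same picture, with 493 and 741 at day 6 against 106 and 65.7 at day 4. Both had the 2 day 6 arrays above the 2 day 4 arrays, with differences of 1.70 and 2.06 in fl/fl and 3.03 and 3.21 in wt/wt organoids. The remaining Lrig1 probe set, 1419928_at, was the only 1 of the 26 below the filter, with at most 11.5.

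Prom1 (CD133), a membrane glycoprotein found on stem cells and their early progeny, varied least of the brightest probe sets. It read 1388 in fl/fl and 2055 in wt/wt organoids at day 6, against 2182 in fl/fl and 1701 in wt/wt organoids at day 4, and the days overlapped. The highest of the 4 values was 1.57 times the lowest.

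Tnfrsf19 (TROY), a receptor of the TNF receptor superfamily and a Wnt target in the crypt, had 34.8 in fl/fl and 36.6 in wt/wt organoids at day 6, against 67.0 in fl/fl and 80.6 in wt/wt organoids at day 4. On this probe set both day 6 arrays lay below both day 4 arrays, by 0.71 in fl/fl and 0.88 in wt/wt organoids (differences of -0.71 and -0.88). In contrast, 1448147_at was higher at day 6, with 44.2 and 42.5 at day 6 against 28.3 and 30.9 at day 4. The dimmest, 1415921_a_at, had 17.6 and 16.2 at day 6 against 25.5 and 23.0 at day 4. The direction for Tnfrsf19 therefore differed between probe sets. With the arrays scaled to their hybridization controls, the brightest probe set was 0.28 higher at day 6 in both genotypes, and with poly-A spike-ins it was 0.16 higher in fl/fl organoids and differed by -0.0016 in wt/wt organoids. These values lay below the median gene, which was at 1.11 in fl/fl and 1.39 in wt/wt organoids with hybridization controls and at 0.98 and 1.05 with poly-A spike-ins.

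Olfm4, a secreted glycoprotein whose crypt expression follows Notch activity, is read by 1 probe set and had 3478 in fl/fl and 6534 in wt/wt organoids at day 6, against 391 in fl/fl and 834 in wt/wt organoids at day 4. Day 6 was 8.90 times day 4 in fl/fl and 7.83 times in wt/wt organoids, and within each day fl/fl organoids had the lower value. The highest of its values was 16.7 times the lowest.

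Smoc2, a secreted calcium-binding matrix protein, gave opposite answers on its 2 probe sets. The brighter on average, 1415935_at, read 891 in fl/fl and 1260.5 in wt/wt organoids at day 6, against 317 in fl/fl and 201 in wt/wt organoids at day 4. Probe set 1431362_a_at read 303 and 308 at day 6, against 555 and 686 at day 4, with differences of -0.84 in fl/fl and -1.11 in wt/wt organoids. It was the only 1 of the 26 probe sets that was 2-fold lower at day 6, and the mean of both probe sets left a difference of 0.30 in fl/fl and 0.72 in wt/wt organoids.

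Counted by probe set, 8 of the 26 were 2-fold higher at day 6 in fl/fl and 14 in wt/wt organoids, against 12.5% and 18.6% of the 19225 probe sets above the filter with a single symbol. For 2-fold lower in wt/wt organoids it was 1 of 26, against 2.79%. The same 10 genes therefore look more uniform on their brightest probe sets than over all of them, with a median over probe sets of 0.67 in fl/fl and 1.35 in wt/wt organoids.

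**Figure D2:**
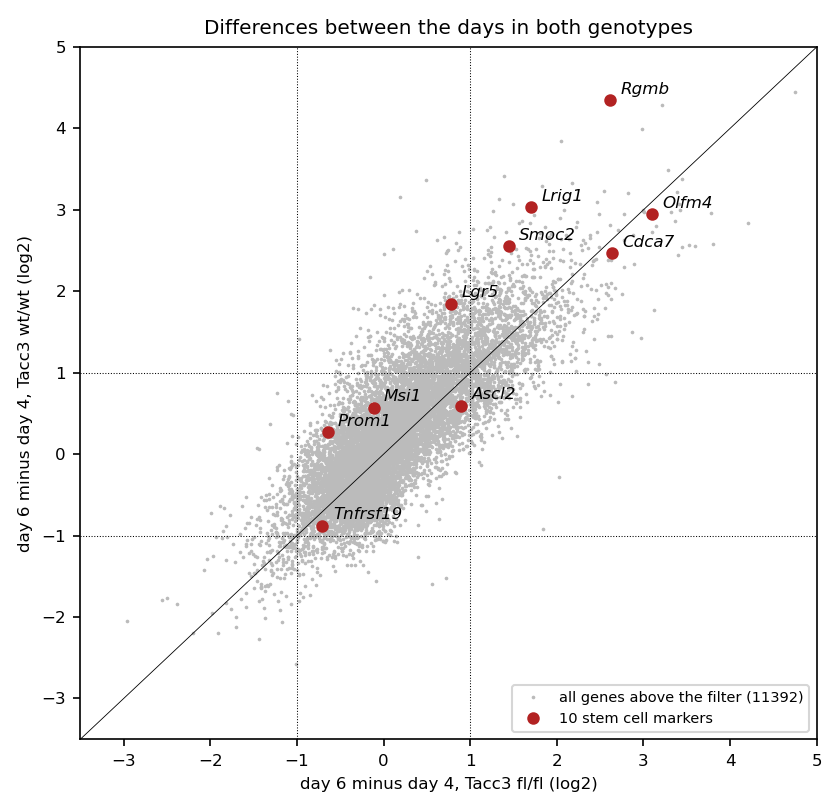
Each point is a gene above the filter on its brightest probe set, with the day 6 minus day 4 difference in fl/fl organoids on the x axis and in wt/wt organoids on the y axis, both in log2 units; each difference rests on 1 array per day. Red points are the 10 markers, dotted lines mark 2-fold and the solid line equality. Rgmb (2.61 and 4.35), Lrig1, Smoc2 and Lgr5 lie above the line of equality, Olfm4 and Cdca7 beside it, and Tnfrsf19 is the only marker with a value below 0 in both, a sign that both scalings to control probe sets turned in fl/fl organoids and the hybridization controls in wt/wt organoids.

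A limma model with additive terms for genotype and day, fitted to the 11392 genes, has 1 residual degree of freedom, takes each gene's genotype-by-day difference for error, and treats the 2 genotypes as replicates of a day. In this fit the day term called 7 of the 10 markers higher at day 6, against 23.1% of all genes, and Tnfrsf19 lower, against 7.16% of all genes. Olfm4 was 3.02 ± 0.19 higher (SE; Benjamini-Hochberg adjusted p = 0.00328, limma, n = 2 arrays per day), Cdca7 2.55 ± 0.19 (adjusted p = 0.00366) and Rgmb 3.48 ± 0.40 (adjusted p = 0.00457). For Lrig1 the limma estimate was 2.37 ± 0.33 (adjusted p = 0.00591), for Smoc2 2.0 ± 0.29 (adjusted p = 0.00668), for Lgr5 1.31 ± 0.29 (adjusted p = 0.0191) and for Ascl2 0.74 ± 0.20 (adjusted p = 0.0348). Tnfrsf19 was at -0.79 ± 0.19 (limma adjusted p = 0.0260). Msi1 (0.23 ± 0.23, limma adjusted p = 0.470) and Prom1 (-0.19 ± 0.26, limma adjusted p = 0.596) were not called. The 5' to 3' ratios and control levels also differed between the days, so day and these cannot be told apart. Control levels differed between the genotypes of a day as well. After quantile normalization Ascl2 was not called (limma adjusted p = 0.201). When all probe sets of a gene were averaged, 5 markers were called. Lgr5 (adjusted p = 0.0515 in limma), Smoc2 (0.0725) and Tnfrsf19 (0.248) were then no longer called. Without the filter on dim genes 4 were called (Olfm4, Cdca7, Rgmb and Tnfrsf19). Over all genes the day term called 2826 of 10511 with averaged probe sets and 1874 of 18193 without the filter, against 3445 of 11392 in the main fit. The fit was not run on the arrays scaled to control probe sets.

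Between the genotypes, most markers read lower at day 6 in fl/fl organoids on the deposited scale, and at day 4 they had either sign. At day 6, 9 of 10 lay below the wt/wt level, with a median of -0.48 against 0.05 for all genes above the filter; scaled to the poly-A spike-ins only 2 of 10 lay below 0, but 9 of 10 still lay below the median gene, which that scaling set at 0.70. The differences were modest: 1 of 10 reached 2-fold lower in fl/fl organoids, against 0.588% of all genes, and 0 reached 2-fold higher, against 0.211%. At day 4, 6 of 10 lay above the wt/wt level, with a median of 0.16 against 0.15 for all genes; with either scaling to control probe sets 9 of 10 lay above 0 but 6 of 10 below the median gene. There 1 of 10 was 2-fold higher, against 1.39% of all genes, and 1 of 10 was 2-fold lower, against 0.105%. Scaling to control probe sets did not move all genes alike, and on this log2 scale dim genes moved less than bright ones. At day 4, hybridization controls moved Olfm4 from -1.06 to -0.55, but the dimmer Rgmb only from 0.28 to 0.47. The median gene at day 4 stood at 0.52 for hybridization controls and 0.73 for poly-A spike-ins. A marker's place relative to the median gene under these scalings thus also depends on its brightness. With hybridization controls 3 of 10 were 2-fold higher and 0 lower, against 8.86% and 0.00881% of all genes. With poly-A spike-ins 4 were higher and 0 lower, against 24.7% and 0.0088%. A share of 1 in 10 rests on a single gene and describes only that gene.

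For Olfm4 the fl/fl value was the lower at day 6 and at day 4 on the deposited scale. Fl/fl organoids held 53.2% of the wt/wt level at day 6 and 46.9% at day 4 (differences of -0.91 and -1.06). With arrays scaled to the poly-A spike-ins the differences were -0.13 at day 6 and -0.30 at day 4, where the median gene stood at 0.70 and 0.73. Cdca7 (-0.08 at day 6 and -0.24 at day 4) and Tnfrsf19 (-0.05 and -0.22) were also below wt/wt on both days on their brightest probe sets, and were above it on both days with either scaling to control probe sets. Other probe sets of both genes differed in sign: at day 4 Cdca7 had 0.33 on 1445681_at, and Tnfrsf19 had 0.04 at day 6 on 1448147_at and 0.06 and 0.09 on 1415921_a_at. The mean over probe sets put Cdca7 at 0.04 at day 4 and Tnfrsf19 at 0.02 at day 6.

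Rgmb was the marker that reached 2-fold at day 6, a call made on 1442811_at and lost on 1428429_at (-0.17). There fl/fl organoids held 35.1% of the wt/wt level on its brightest probe set (difference -1.45). The other 5 Rgmb probe sets gave 51.2% to 88.5%, so that all 6 were lower on the deposited scale, with differences between -0.17 and -1.45. At day 4 the Rgmb probe sets ran from -0.28 to 1.16. Lrig1 was the marker that reached 2-fold higher at day 4, with fl/fl organoids at 225% of the wt/wt level (difference 1.02). That call was lost on 1449893_a_at, at 162% (difference 0.58), and with a pseudocount of 64 (0.74). It was also lost after quantile normalization (0.83) and with the mean of probe sets (0.52). At day 6 the brightest Lrig1 probe set had 80.4% and 1449893_a_at had 66.4%.

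For Lgr5, fl/fl organoids held 71.8% of the wt/wt level at day 6 and 155% at day 4 on the brightest probe set, but 76.0% and 90.1% on 1444519_at. Smoc2 was close to that, with 70.7% at day 6 and 158% at day 4 on 1415935_at, but its other probe set had 98.4% and 80.9%. Prom1 stood at 67.5% and 128%, and Msi1 at 59.0% and 104%. The other Msi1 probe sets had 50.8% and 232% on 1444306_at, and 89.9% and 59.4% on 1421409_at. Ascl2 was the only marker above the wt/wt level at day 6 on its brightest probe set, with 113%, against 89.8% at day 4. Its probe set 1432018_at had 61.6% at day 6 and 124% at day 4, and without x_at and s_at probe sets all 10 markers lay below wt/wt at day 6.

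**Figure D3:**
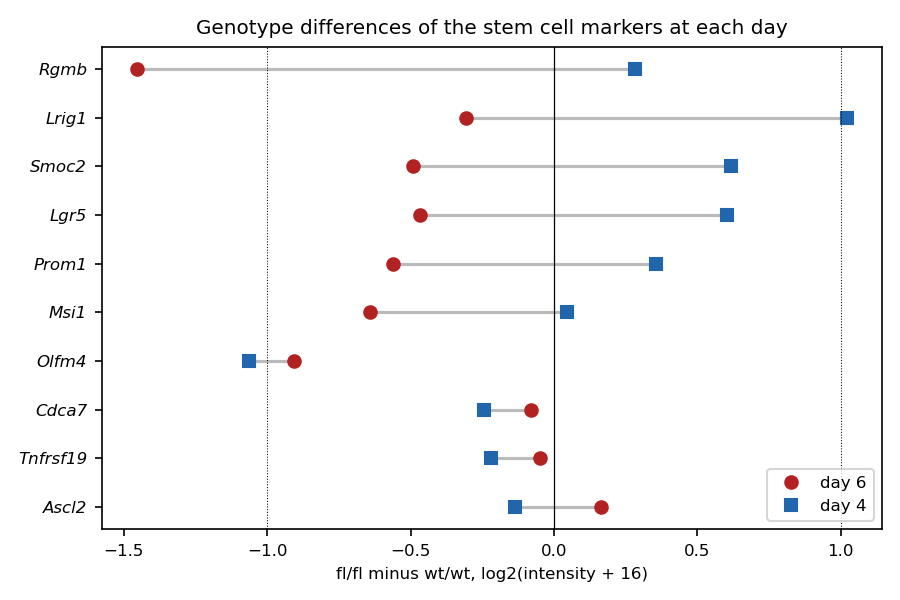
Difference between fl/fl and wt/wt organoids on the log2(intensity + 16) scale (x axis) for the brightest probe set of each marker (y axis), at day 6 (red circles) and day 4 (blue squares), from 1 array per group; the grey bar joins the days and dotted lines mark 2-fold. At day 6 all markers but Ascl2 lie below 0, and Olfm4 alone is beyond -0.9 on both days; with the poly-A spike-in scaling only Olfm4 and Rgmb stay below 0 at day 6.

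The genotype difference at day 6 minus that at day 4 was -1.74 for Rgmb, -1.33 for Lrig1, -1.11 for Smoc2 and -1.07 for Lgr5. These 4 of 10 were past 2-fold in that direction, against 4.2% of all genes, and 0 of 10 were past 2-fold in the other, against 0.658%. The median over the markers was -0.80, against -0.09 for all genes. By construction this is also the day difference in fl/fl organoids minus that in wt/wt organoids, so the smaller day difference of these genes in fl/fl organoids is the same observation. With 1 array per group it has no test. The count fell to 2 of 10 after quantile normalization, without Lgr5 and Smoc2, and to 0 of 10 when the probe sets of a gene were averaged, where Prom1 had the largest size at -0.92 and Lrig1 followed at -0.86. In the additive limma fit the genotype term called 0% of genes and 0 of 10 markers at a Benjamini-Hochberg adjusted p under 0.05. Without adjustment, limma had 607 genes and 1 marker, Olfm4, under that threshold. The limma estimate for Olfm4 was -0.98 ± 0.19 (SE; adjusted p = 0.786).

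Other genes of the crypt base signature, a list of 35, gave a less uniform picture. Of these 32 were read by a probe set of their own and 30 lay above the filter. At day 6, 10 of 30 were 2-fold higher and 1 was 2-fold lower in fl/fl organoids, against 12.5% and 2.9% of all genes above the filter. In wt/wt organoids 9 of 30 were higher and 0 lower, against 18.6% and 3%. In both genotypes 7 of 30 were higher, against 9.6%. The median of the 30 was 0.50 in fl/fl and 0.73 in wt/wt organoids.

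Lgr4, the paralogous R-spondin receptor, had 836 in fl/fl and 984 in wt/wt organoids at day 6, against 139 in fl/fl and 101 in wt/wt organoids at day 4. Its differences of 2.46 and 3.10 exceed those of Lgr5 itself. Slc12a2, a sodium-potassium-chloride cotransporter, differed by 1.57 in fl/fl and 2.83 in wt/wt organoids, and Aqp4, a water channel, by 2.18 and 2.21. Pla2g4a, a cytosolic phospholipase, differed by 1.36 and 2.17. The Wnt feedback genes Axin2 and Znrf3, both of which restrain the pathway, differed by 1.04 and 2.26 and by 1.33 and 1.87. Not every signature gene did so: Sox9, a transcription factor of the lower crypt, had differences of -0.37 and -0.06, and Ephb3, a receptor that positions cells along the crypt, -0.49 and 0.14.

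Between the genotypes, 2 of these 30 genes reached 2-fold higher at day 6 in fl/fl organoids and 0 lower, against 0.211% and 0.588% of all genes. At day 4, 1 of 30 reached 2-fold higher and 0 lower, against 1.39% and 0.105%. Those at day 6 were Id1 and Id3, targets of BMP signalling. Id1 had 285 in fl/fl and 103 in wt/wt organoids at day 6, against 87.9 in fl/fl and 58.0 in wt/wt organoids at day 4. Id3 had 144 and 44.2 at day 6, against 26.5 and 20.3 at day 4. The array of fl/fl organoids at day 6 was the highest for both genes, and their genotype differences at that day were 1.35 and 1.41. The gene at day 4 was Cyp2e1, a cytochrome, with 177 in fl/fl and 51.1 in wt/wt organoids (difference 1.52). For the genotype difference at day 6 minus that at day 4, 6 of the 30 were past 2-fold lower and 1 higher. The shares of all genes were 4.2% and 0.658%. The median was -0.14, against -0.09 for all genes. Axin2 had -1.22 and Slc12a2 -1.27, while Id3 had 1.19 and Id1 0.86.

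Genes associated with reserve or regenerating stem cells went both ways, with 1 of 7 being 2-fold higher and 2 of 7 being 2-fold lower at day 6 in both genotypes. Of all genes above the filter, 9.6% were 2-fold higher in both genotypes. Those 2-fold lower were 2.9% in fl/fl and 3% in wt/wt organoids, each genotype taken alone, so at most 2.9% were lower in both. Hopx, which marks slowly dividing crypt cells, had 2198 in fl/fl and 1584 in wt/wt organoids at day 6, against 454 in fl/fl and 465 in wt/wt organoids at day 4. Clu, a marker of regenerating epithelium, was lower, with 1046 and 1157 at day 6 against 5995 and 3973 at day 4. Mex3a, an RNA-binding protein of slowly cycling Lgr5+ cells, was also lower, by 1.31 and 1.20 (differences of -1.31 and -1.20). These directions hold on the deposited scale; scaled to either set of control probe sets, the median gene itself was 0.98 to 1.39 higher at day 6. Bmi1, a Polycomb protein, differed by 0.76 in fl/fl and 1.59 in wt/wt organoids, Krt19, a keratin, by 0.64 and 0.86, and Tert, the telomerase reverse transcriptase, by -0.39 and -0.02.

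Of 14 genes of niche signalling, 5 lay above the filter. The R-spondin genes Rspo1 and Rspo3 and the Wnt genes Wnt3, Wnt2b and Wnt5a were among those below it, and so were Grem1, Nog and Bmp4, which encode BMP antagonists and a BMP ligand. On the Notch side, the target gene Hes1 had 201 in fl/fl and 230 in wt/wt organoids at day 6, against 77.0 in fl/fl and 83.8 in wt/wt organoids at day 4. The ligand gene Dll1 differed by 0.79 in fl/fl and 1.46 in wt/wt organoids and the receptor gene Notch1 by 0.52 and 1.34. Dll4, another ligand, differed by -0.20 and -0.15, and the growth factor gene Tgfa by 0.56 and 0.08.

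**Figure D4:**
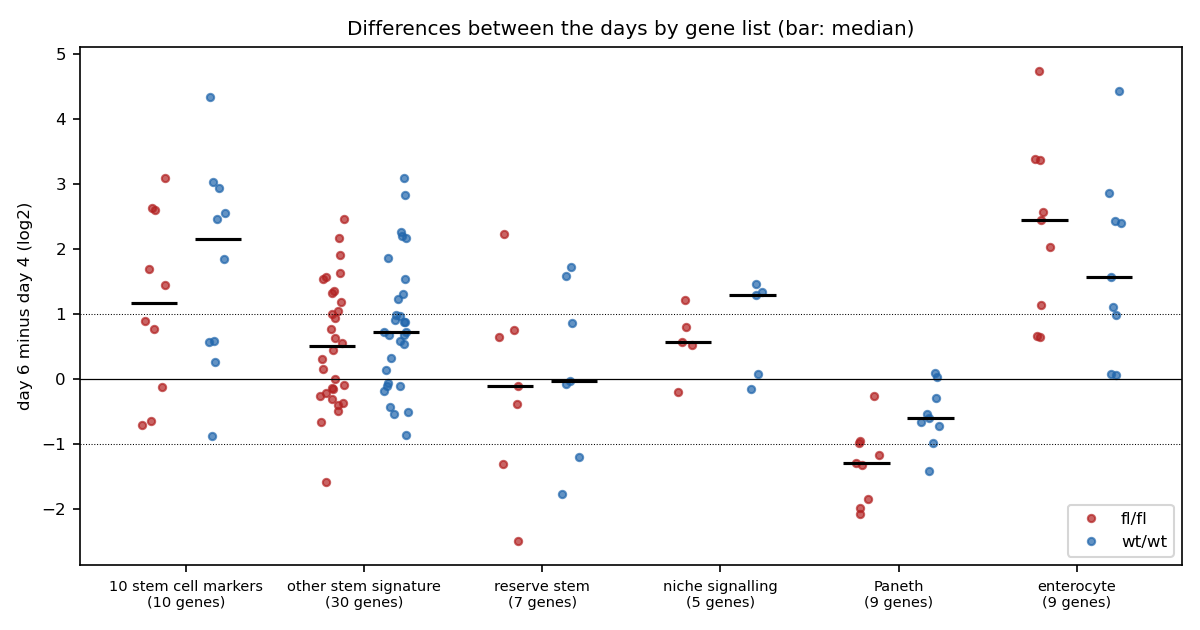
Day 6 minus day 4 differences (y axis, log2 units) of the genes above the filter in 6 lists (x axis), with fl/fl organoids in red at the left and wt/wt organoids in blue at the right of each pair; each point is a gene, the bar is the list's median and dotted lines mark 2-fold. The medians of the stem cell markers (1.17 and 2.16) and of enterocyte genes (2.45 and 1.57) lie above 1 in both genotypes and those of Paneth cell genes (-1.29 and -0.60) below 0; scaled to hybridization controls the Paneth medians were -0.02 and 0.84, where the median gene stood at 1.11 and 1.39.

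Markers of other cell types moved between the same arrays. Of 9 enterocyte genes, 7 in fl/fl and 6 in wt/wt organoids were 2-fold higher at day 6, against 12.5% and 18.6% of all genes. The summed intensity of the 9 was 11207 in fl/fl and 7830.1 in wt/wt organoids at day 6, against 2173 and 1772 at day 4. Of 9 genes of Paneth cells, the neighbours of crypt base stem cells, 6 in fl/fl and 1 in wt/wt organoids were 2-fold lower at day 6. The shares of all genes were 2.9% and 3%. The 9 Paneth cell genes had sums of 45028 and 48530.1 at day 6 against 80657 and 58282 at day 4. Scaled to either set of control probe sets, the Paneth median in wt/wt organoids turned to 0.47 or 0.84 but stayed 0.54 to 0.58 below the median gene (differences of -0.54 and -0.58). Summed over the 10 stem cell markers, intensity came to 8222 in fl/fl and 13262 in wt/wt organoids at day 6, against 3823 in fl/fl and 3466 in wt/wt organoids at day 4. Olfm4 alone gave 3478 and 6534 of the day 6 sums. The stem cell markers and the enterocyte genes were thus both higher at day 6, and on the deposited scale in opposite order between the genotypes there. Scaled to poly-A spike-ins, the median genotype difference at day 6 was 0.29 for the markers and 1.43 for the enterocyte genes. The median gene then stood at 0.70. With hybridization controls these medians were -0.18 and 1.03, with the median gene at 0.31. Goblet cell genes had medians of -0.26 in fl/fl and 0.28 in wt/wt organoids (0.98 and 1.57 with hybridization controls, -0.54 and -0.19 after quantile normalization). Enteroendocrine genes had 0.52 and -0.13 (1.58 and 0.80 with hybridization controls, 0.35 and -0.25 after quantile normalization). Tuft cell genes had 0.63 and 0.02 (1.53 and 0.88, and 0.58 and -0.05, in the same order). With hybridization controls the median gene stood at 1.11 and 1.39. Of mesenchymal, immune and endothelial markers, 3 of 8, 2 of 6 and 0 of 5 lay above the filter, and each of these 19 genes read at most 45.6 on any array. The part of a changing cell makeup in the marker differences was not tested.

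Genes whose 4 values follow a member most closely were sought among the genes above the filter, by the root mean square distance between log2 values after subtracting each gene's own mean. For Lgr5 these were Tasor2 (distance 0.03), Sepsecs, Zwilch, H3f3b and Nr1h4 (0.06). Zwilch, a kinetochore gene, had 169 in fl/fl and 257 in wt/wt organoids at day 6, against 97.5 in fl/fl and 53.3 in wt/wt organoids at day 4. The nearest of the other markers to Lgr5 was Smoc2, at a distance of 0.34 at rank 1496 of the genes above the filter. The log2 scale used understates the differences of dim genes, and the genes closest to Lgr5 were dimmer than Lgr5. In wt/wt organoids Tasor2 read 95.8 at day 6 and 15.3 at day 4, and Sepsecs 100 and 18.8. Day 6 was 3.76 times day 4 there for Lgr5 and 6.26 times for Smoc2. The part of brightness in these ranks was not tested. For Olfm4 the closest genes were Cdca7 (0.47), Ttc14, Scin, Mgst1 and Slc6a20a (0.48), and Rgmb was at rank 22 (0.56). With 4 values per gene, such likeness describes these arrays only.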

How the data were processed

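The authors deposited 1 linear intensity for each of 45101 probe sets on each of 4 Affymetrix arrays, as the values themselves show; the sources used here do not give their summarisation, background correction or normalization. Per the labels' protocols, biotinylated cRNA was made from 100 ng of total RNA. Groups came from the sample titles, with 1 array each, so the number of arrays limits the precision and no depth applies.

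The intensities were analysed as log2(intensity + 16) with no further normalization (Python 3.11.15, pandas 2.3.3). A probe set was named by the platform's gene table, which gives 1 symbol for 34958 probe sets, several for 932 and does not list 9211; symbols were updated by Entrez ID from RefSeq (34754 matched). Where a gene had several probe sets, the brightest by mean intensity over the same 4 arrays stood for it, in the counts and in the main limma fit. Counts over genes used those whose mean log2 value reached the median of all probe sets (5.04, an intensity of 16.9). An additive model of genotype and day was fitted with limma 3.58.1 in R 4.3.3, with Benjamini-Hochberg adjustment over all genes above that filter. The fit was also run on simulated data with independent noise, known day differences and no genotype difference. That simulation held no genotype-by-day difference and no difference in control levels, so it does not check the p-values given here. All 10 members were described. For the stem signature, reserve stem and niche signalling lists, up to 6 genes with the largest mean day difference and 2 with the largest mean genotype difference were named. Sox9, Ephb3 and Id3 were added after their values were seen. The lists of other cell types were described by medians, sums and counts only. The members and lists were chosen with earlier results of these data known.

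Alternatives were a pseudocount of 1 or 64, quantile normalization, centring each array on its median, the mean over probe sets, no x_at or s_at probe sets, no filter, and, chosen after seeing the data, scaling to hybridization controls or to poly-A spike-ins.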

Additional observations from a re-analysis of the deposited data

Results flagged for a closer look

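On the deposited scale and the brightest probe sets, for several markers the same contrast ran in opposite directions on the 2 days or in the 2 genotypes. With 1 array per group none of these differences was tested. The genotype difference (fl/fl minus wt/wt) was negative at day 6 and positive at day 4 for 6 markers. For Rgmb it was -1.45 at day 6 and 0.28 at day 4, a shift of -1.74, and for Lrig1 -0.31 and 1.02, a shift of -1.33. For Smoc2 it was -0.49 and 0.62, a shift of -1.11, and for Lgr5 -0.47 and 0.60, a shift of -1.07. Prom1 had -0.56 and 0.36, a shift of -0.92, and Msi1 -0.64 and 0.04, a shift of -0.69. Ascl2 went the other way, with 0.16 at day 6 and -0.14 at day 4, a shift of 0.30, but on 1432018_at it had -0.60 and 0.21, a shift of -0.81, and with the mean over probe sets a shift of -0.20. The shifts of Lgr5, Smoc2 and Msi1 were -0.18, 0.28 and 0.40 on 1444519_at, 1431362_a_at and 1421409_at. Prom1 and Msi1 also had day differences of opposite sign, -0.65 in fl/fl and 0.27 in wt/wt organoids for Prom1, and -0.12 and 0.57 for Msi1. The Gapdh 5' to 3' ratio shifted between the genotypes as well, with fl/fl organoids at 1.28 times the wt/wt ratio at day 6 and 0.683 times at day 4. For Actb the ratios were 1.45 and 1.03 times. The part of either in these shifts was not tested.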

How the results depend on the processing

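No paired analysis was possible because the labels carry no replicate numbers and each group has 1 array, and for the same reason no array could be left out. Counts of markers past 2-fold between the days, 5 of 10 in fl/fl and 6 of 10 in wt/wt organoids, stayed within 1.5 times under all 9 alternatives. The genes counted changed. With the mean of probe sets Smoc2 left (0.30 and 0.72) and Ascl2 entered (1.04 and 1.24). The 7 in wt/wt organoids with a pseudocount of 1 and after quantile normalization include Tnfrsf19 as lower. With either scaling to control probe sets 7 in fl/fl and 9 in wt/wt organoids were counted, where the median gene was 0.98 to 1.39 higher. On the deposited scale 12.5% of all genes in fl/fl and 18.6% in wt/wt organoids were 2-fold higher. That share was not counted under these scalings, so the counts there cannot be read as the same result. Between genotypes at day 4, where 2 markers were past 2-fold, there were 0 with a pseudocount of 64 and 1 each after quantile normalization, with the mean of probe sets and without x_at and s_at probe sets; scaled to poly-A spike-ins there were 4. At day 6, where 1 was, there were 0 with the mean of probe sets and with poly-A scaling. For the genotype difference at day 6 minus that at day 4, past 2-fold in 4 markers, there were 2 with a pseudocount of 64 and after quantile normalization and 0 with the mean of probe sets. The additive limma fit called 8 markers by day, against 3445 of 11392 genes. It called 5 with the mean of probe sets, against 2826 of 10511 genes, and 4 with no filter, against 1874 of 18193 genes. By genotype it called 0 markers under all 7 alternatives it was run with. It was not run with the 2 control scalings, which were chosen after seeing the data. Quantile normalization moved the day term's split over all genes to 2050 higher and 2256 lower, against 2629 and 816. Of 400 values of a single marker under the 8 alternatives that can move one (removing the filter cannot), 326 kept their sign and their side of 2-fold. Relative to the median gene, 9 of 10 markers were above it between the days in wt/wt organoids and 7 of 10 in fl/fl organoids under all 9 alternatives. The cause of the changes was not tested. No detection calls were used, so signal over background is unknown for dim probe sets.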
